A study of Homo sapiens with 4 samples.

Results

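RAD21 ChIP-seq peaks were described at 10 genes that encode cohesin, its regulators and CTCF. These were SMC3 and STAG1 of the cohesin complex, the loader genes NIPBL and MAU2, the release genes WAPL, PDS5A and PDS5B, the acetyltransferase genes ESCO1 and ESCO2, and CTCF. They were chosen by name among 20033 protein-coding genes of the GENCODE version 44 annotation on chromosomes 1 to 22, X and Y. A peak was assigned to a gene when its summit lay inside the gene body or within 20 kb of it, which gave 31 of the 56853 peaks of the list. Each gene had at least 1 such peak, but the same share over all protein-coding genes was not computed. Neighbouring summits of the list lay a median of 24388 bp apart, less than the length of any of these windows.

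Cohesin is a ring of SMC1, SMC3 and RAD21 to which a STAG subunit binds. NIPBL and MAU2 form the loader, and NIPBL also drives the ATPase during loop extrusion. WAPL together with a PDS5 protein opens the ring and releases it from chromatin. ESCO1 and ESCO2 acetylate SMC3, which protects the ring from release, and ESCO2 does so mainly in the S phase. CTCF is a zinc finger protein that binds DNA in an oriented way and stops extruding cohesin, so that RAD21 peaks commonly mark CTCF sites. Only RAD21 was precipitated here, so a peak at one of these genes shows neither binding of the other proteins nor expression of the gene.

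The study produced 4 ChIP-seq libraries from HCT116, a human colon carcinoma cell line, with 1 library per condition. They were RAD21 ChIP of untreated wild-type cells, RAD21 ChIP of untreated HCT116_RAD21_AID cells, RAD21 ChIP of HCT116_RAD21_AID cells kept for 6 h with the auxins IAA (indole-3-acetic acid) and α-NAA (alpha-naphthaleneacetic acid), each at 500 μM, and Input of the auxin-treated HCT116_RAD21_AID cells. HCT116_RAD21_AID is 1 clone in which both RAD21 copies carry the mAID degron and which expresses the ubiquitin ligase OsTIR1 from a lentiviral vector, whereas the wild-type cells carry neither. Values below come from the peak list of untreated wild-type cells, and the remaining 3 libraries were not analysed here. With 1 library there was no replicate spread and no test, and the cell line label could not be checked against expression markers in a peak list.

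The height of a peak is its fold enrichment, the number of ChIP fragments over the summit plus 1 divided by the local background plus 1. The number of fragments was recovered from the deposited values, and it was whole for every one of the 31 peaks. Intervals in parentheses are 95% exact Poisson intervals of that number, carried over to fold enrichment. They cover counting error of the ChIP fragments only, since the local background was taken as exact. The median peak of the list had 48.0 fragments and a fold enrichment of 5.58, with quartiles at 3.46 and 10.7. The lowest local background of the list was 5.90 fragments. A local background of at least 2 times this value was found at 7.96% of the list's peaks on chromosomes and at 7 of the 31 peaks at the 10 genes, and it is given beside those peaks below.

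The sequences under the 10 peaks that reached a fold enrichment of 10 are shown first. Each of them held a match to the 12-base CTCF consensus with at most 2 mismatches, as did 89.5% of all such peaks on chromosomes. The limit of 2 mismatches was set after values were seen. They were read from the GRCh38 reference on the strand of the match, and the capitals mark the 12 matched bases. The first 3 matches had no mismatch, and they lay under the STAG1 promoter peak, the peak downstream of MAU2 and the peak upstream of CTCF.
STAG1 promoter, chr3:136752340-136752369, minus strand: tggaaaatgCCACCAGATGGCgggttagga
MAU2 downstream, chr19:19367002-19367061, plus strand: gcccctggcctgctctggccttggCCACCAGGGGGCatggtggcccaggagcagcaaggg
CTCF upstream, chr16:67547122-67547181, plus strand: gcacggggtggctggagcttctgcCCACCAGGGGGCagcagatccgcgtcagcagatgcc

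The match under the peak downstream of SMC3 had 1 mismatch. The others had 2, and they are shown because 4 of them lay in the body or at the start of a member gene.
SMC3 downstream, chr10:110610442-110610501, plus strand: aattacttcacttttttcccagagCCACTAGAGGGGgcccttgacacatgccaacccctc
STAG1 upstream, chr3:136758678-136758737, minus strand: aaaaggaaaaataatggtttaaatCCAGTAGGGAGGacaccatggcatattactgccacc
MAU2 intron 9, chr19:19342879-19342938, minus strand: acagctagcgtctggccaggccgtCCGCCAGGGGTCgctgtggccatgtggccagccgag
PDS5A promoter, chr4:39977986-39978045, minus strand: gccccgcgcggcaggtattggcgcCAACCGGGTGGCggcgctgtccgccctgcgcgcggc
PDS5A exon 2, chr4:39976594-39976623, minus strand: cgatagaggCCGGTAGAGGACtgtgaacca
PDS5B promoter, chr13:32586332-32586391, plus strand: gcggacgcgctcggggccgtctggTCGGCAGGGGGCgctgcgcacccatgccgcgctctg
CTCF downstream, chr16:67644830-67644889, minus strand: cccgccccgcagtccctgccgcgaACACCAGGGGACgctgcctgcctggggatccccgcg

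Of the 31 peaks, 11 were promoter peaks, with a summit within 1 kb of the start of the gene's representative transcript. The promoter peaks had a median fold enrichment of 4.43 and ranged from 2.52 at MAU2 to 34.5 at STAG1. Another 8 peaks were intragenic, with a median of 4.65 and a range from 2.39 to 15.5. The upstream flanks held 6 peaks with a median of 3.84, and the downstream flanks held 6 peaks with a median of 10.3. The highest peak of a window lay at the promoter in 3 genes, in the body in 2, in the upstream flank in 2 and in the downstream flank in 3. The highest peak thus lay at different positions in different genes. The same split over all protein-coding genes was not computed, and the classes cover stretches of unlike length.

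**Figure D1:**
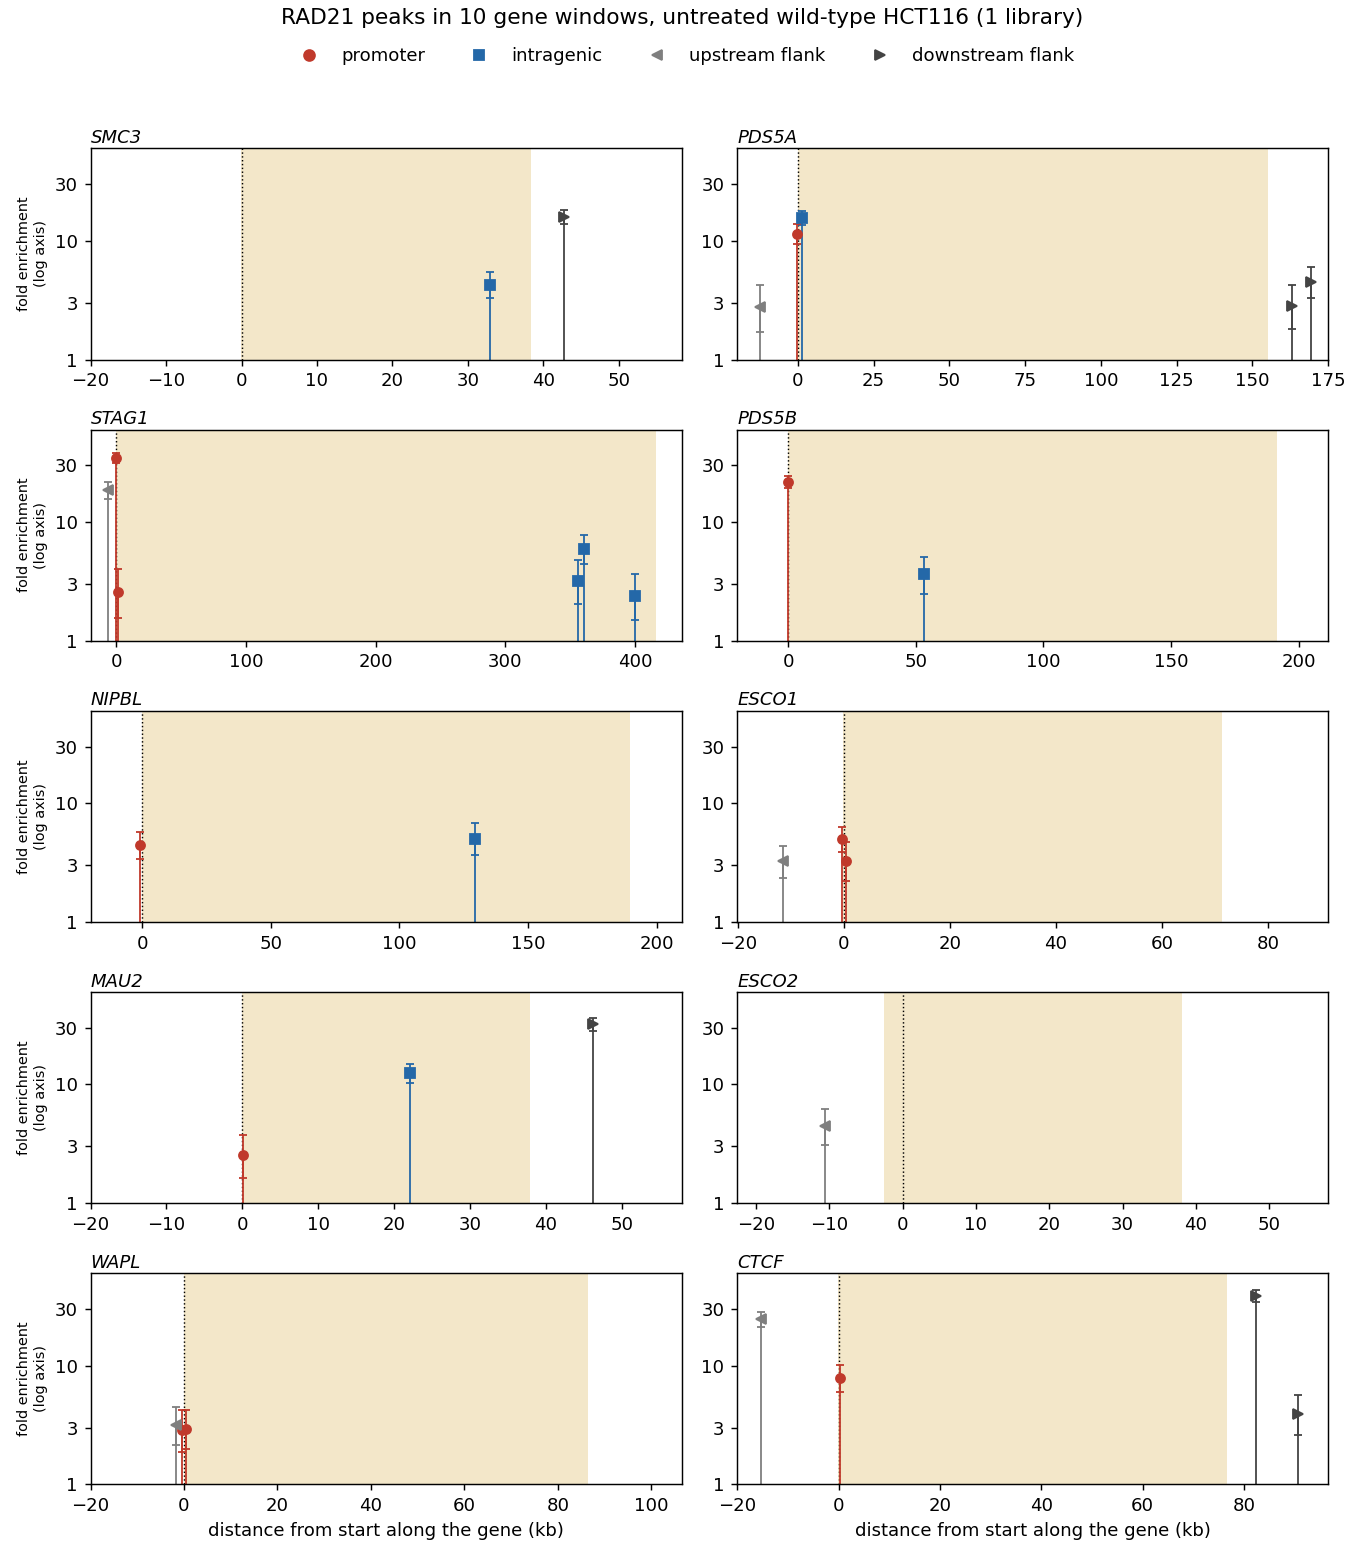
RAD21 peaks in the windows of the 10 genes in untreated wild-type HCT116 cells, 1 library. The horizontal axis is the distance from the representative start along the gene in kb, the vertical axis is the fold enrichment on a log scale, the shaded area is the gene body, and bars are 95% Poisson intervals of counting error. The peaks of WAPL lie at its start and reach 3.15, whereas those on both sides of CTCF reach 24.5 and 38.7.

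The median fold enrichment of the 31 peaks was 4.46, with a 95% order-statistic interval from 3.23 to 11.5 that includes the median of the list. The median of the 27319 summits inside protein-coding gene bodies was 5.22. The peaks were spread to both ends. A value of at least 10 was seen at 10 of 31 peaks, against 27.3% of all peaks on chromosomes, and a value below 4 at 13 of 31, against 33.1%. Both shares lay near those of the list.

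SMC3 encodes an SMC subunit whose head domain is the substrate of ESCO1 and ESCO2. The gene (chr10:110567684-110606048, plus strand, 38.4 kb) had no promoter peak. Its only intragenic peak lay in intron 22 of 28 (chr10:110600558-110600821) with 64 fragments and a fold enrichment of 4.27 (3.31 to 5.44). The strongest peak of the window lay 4441 bp past the end of the gene (chr10:110609714-110610795), with 212 fragments and a fold enrichment of 16.0 (13.9 to 18.3). The interval of the peak past the end lay above that of the intronic peak. The local background was high at both, 2.41 and 2.09 times the lowest value of the list, and its part in these heights was not tested. Upstream, the nearest summit lay 20342 bp away with a fold enrichment of 5.16. It fell just outside the 20 kb limit, whereas the farthest upstream peak inside it was that of CTCF at 15302 bp.

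STAG1 encodes 1 of the alternative STAG subunits, through which cohesin contacts CTCF. The gene is the longest of the 10 (chr3:136336236-136752403, minus strand, 416 kb), and it carried the highest promoter peak among them. This peak (chr3:136751926-136753248) had 393 fragments and a fold enrichment of 34.5 (31.2 to 38.1), and its summit lay 5 bp before the representative start. It was higher than 98.3% of the highest promoter peaks of all genes that had one. A divergent long noncoding transcript, STAG1-DT, starts 252 bp away, under the same peak. A weak second promoter peak lay 917 bp into the gene in intron 1, with 17 fragments and a fold enrichment of 2.56 (1.55 to 4.02).

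A further strong peak of STAG1 lay 6305 bp upstream of the gene (chr3:136758266-136759122), with 133 fragments and a fold enrichment of 18.5 (15.5 to 21.9). Inside the body there were 3 peaks, all in the last part of the gene. The highest of them, in intron 22 of 33 (chr3:136391426-136391992), had 50 fragments and a fold enrichment of 5.95 (4.44 to 7.80). The other two, in introns 22 and 28, reached 3.17 and 2.39. Between the promoter and intron 22 no summit was called over 355307 bp, or 85.4% of the gene. The nearest summit past the end lay 30142 bp away with a fold enrichment of 8.51.

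NIPBL encodes the subunit of the loader that activates the cohesin ATPase. The gene (chr5:36876769-37066413, plus strand, 190 kb) had 2 peaks of moderate height. The promoter peak (chr5:36875836-36876441) had its summit 776 bp before the start, in exon 1 of the divergent transcript NIPBL-DT, with 58 fragments and a fold enrichment of 4.43 (3.38 to 5.71). The local background there was 2.09 times the lowest value. The intragenic peak in intron 16 of 46 (chr5:37005965-37006291) had 41 fragments and a fold enrichment of 5.02 (3.64 to 6.77). The intervals of the promoter and intronic peaks overlapped. The nearest summit past the end lay 182644 bp away with a fold enrichment of 2.40, the most distant flanking peak of the 10 genes.

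MAU2 encodes the partner of NIPBL in the loader. The gene (chr19:19320829-19358754, plus strand, 37.9 kb) is the shortest of the 10, and its peaks stood higher at each step along the gene. The promoter peak (chr19:19320883-19321177) lay 68 bp into exon 1 with 23 fragments and a fold enrichment of 2.52 (1.64 to 3.73), higher than only 8.13% of the promoter peaks of all genes. The intragenic peak in intron 9 of 18 (chr19:19342507-19343220) reached 12.5 (10.4 to 14.9) with 118 fragments, and its summit lay 274 bp from the start of a shorter annotated MAU2 transcript. The downstream peak (chr19:19366725-19367550), 8297 bp past the end, reached 32.1 (28.2 to 36.4) with 244 fragments. The 3 intervals did not overlap. The neighbouring protein-coding gene SUGP1 starts 320 bp from the MAU2 start in the opposite direction. The nearest other upstream summit lay 95549 bp away with a fold enrichment of 11.2.

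WAPL encodes the release factor. The gene (chr10:86435256-86521792, minus strand, 86.5 kb) had only weak peaks, all 3 of them near its start. The summit in intron 1, 444 bp from the start (chr10:86521052-86521692), had 27 fragments and a fold enrichment of 2.94 (1.97 to 4.23). The summit 319 bp before the start, in exon 1 of the divergent transcript WAPL-DT (chr10:86521959-86522256), had 23 fragments and a fold enrichment of 2.87 (1.86 to 4.25). The third, 1729 bp before the start in exon 2 of WAPL-DT (chr10:86523470-86523711), had 29 fragments and a fold enrichment of 3.15 (2.14 to 4.48). These heights did not differ beyond counting error. The nearest summit past the end lay 33811 bp away with a fold enrichment of 2.22, so that no peak of the gene or next to it reached the list's lower quartile.

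PDS5A encodes a PDS5 protein, which takes part in release with WAPL and also in the protection of acetylated cohesin. The gene (chr4:39822863-39977956, minus strand, 155 kb) had a pair of strong peaks at its start. The promoter peak (chr4:39977462-39978242), 112 bp before the start, had 100 fragments and a fold enrichment of 11.5 (9.37 to 14.0). The other lay in exon 2 (chr4:39976351-39977184), 1298 bp from the representative start and 897 bp from another annotated PDS5A start, with 220 fragments and a fold enrichment of 15.5 (13.5 to 17.7). Their intervals overlapped, and the local background was 1.32 times the lowest value at the first and 2.25 times at the second. It was counted as intragenic under the 1 kb limit, although it lay next to the promoter. No summit was called in the other 99.1% of the body. The flanking peaks were weak, with a fold enrichment of 2.75 (1.69 to 4.27) upstream and of 2.84 (1.81 to 4.28) and 4.51 (3.28 to 6.07) downstream. The nearer of the downstream peaks lay 7997 bp past the end.

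PDS5B encodes the paralog of PDS5A. The gene (chr13:32586452-32778019, plus strand, 192 kb) had the second highest promoter peak of the 10. Its summit (chr13:32586162-32586625) lay 77 bp before the start, with 308 fragments and a fold enrichment of 21.7 (19.3 to 24.2). This was higher than 95.9% of the promoter peaks of all genes, and the local background was 2.25 times the lowest value. The interval did not overlap that of the PDS5A promoter peak. The body held a single weak peak in intron 1 of 34 (chr13:32639612-32639860), with 30 fragments and a fold enrichment of 3.61 (2.48 to 5.11). No other peak lay within 20 kb, and the nearest past the end was 133657 bp away with a fold enrichment of 15.0.

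ESCO1 and ESCO2 differed at their starts. ESCO1 encodes the acetyltransferase active through interphase, and the gene (chr18:21529284-21600884, minus strand, 71.6 kb) had 2 promoter peaks. The higher (chr18:21600783-21601196), 337 bp before the start, had 65 fragments and a fold enrichment of 4.96 (3.84 to 6.30), and the local background was 2.09 times the lowest value. The lower, in intron 1 and 405 bp from the start, reached 3.26 (2.19 to 4.70), and the intervals overlapped. The upstream peak, 11375 bp outside the body, had a fold enrichment of 3.23 (2.35 to 4.34) and a background of 2.09 times the lowest, and its summit lay 55 bp from the start of SNRPD1, a gene for a spliceosomal protein. The nearest summit past the end lay 39980 bp away with a fold enrichment of 11.3.

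The sequence under the higher ESCO1 promoter peak is shown because it was the promoter match with the fewest mismatches after that of STAG1. It held the CTCF consensus with 1 mismatch, in capitals, on the strand of the gene.
ESCO1 promoter, chr18:21601002-21601061, minus strand: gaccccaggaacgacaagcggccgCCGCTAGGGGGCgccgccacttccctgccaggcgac

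In the ESCO2 window a single peak was called, and it lay outside the gene. ESCO2 encodes the acetyltransferase of the S phase, and its body spans 40.7 kb. The peak had its summit 7948 bp upstream of the body in intron 2 of CCDC25, with 33 fragments and a fold enrichment of 4.46 (3.11 to 6.21). No summit lay at the ESCO2 promoter or in the body, and the nearest past the end was 43050 bp away with a fold enrichment of 14.9.

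CTCF (chr16:67562467-67639177, plus strand, 76.7 kb) had a moderate promoter peak, an empty body and strong peaks in both flanks. The promoter peak (chr16:67562571-67562888) lay in intron 1, 253 bp from the start, with 58 fragments and a fold enrichment of 7.91 (6.04 to 10.2). The divergent transcript CTCF-DT starts 217 bp from the CTCF start. The upstream peak (chr16:67546737-67547529), 15302 bp from the body, had 168 fragments and a fold enrichment of 24.5 (20.9 to 28.5). The downstream peak (chr16:67644495-67645279), 5663 bp past the end and 148 bp from the start of CARMIL2, had 266 fragments and a fold enrichment of 38.7 (34.2 to 43.6). It was the highest of the 31 peaks, and the local background was at the lowest value of the list on both sides. A weaker peak in CARMIL2 had a fold enrichment of 3.91 (2.61 to 5.67).

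The consensus matches under the flanking peaks of CTCF pointed toward the gene, on the plus strand upstream and on the minus strand downstream. The downstream match had 2 mismatches. A match with at most 2 also lay in 7.01% of windows 5 kb to either side of the summits of the list. The share of facing pairs over other genes was not computed. Such facing pairs are the arrangement known for the ends of many chromatin loops, and contacts were not measured here. Summits of at least 10 in both flanks occurred only at CTCF among the 10 genes, against 4.74% of protein-coding genes. In at least 1 flank it was found at 4 genes (SMC3, STAG1, MAU2 and CTCF), against 36.0%. Promoter summits were left out of both counts.

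Promoter peaks were thus found at 8 of the 10 genes, all but SMC3 and ESCO2, against 34.1% of all protein-coding genes. Over all genes, promoter peaks were more frequent at CpG-rich promoters. All 10 genes had CpG-rich promoters, against 62.0% of all protein-coding genes. Their GC content ranged from 56.0% to 76.3% and their observed to expected CpG ratio from 0.728 to 1.14 in 300 bases around the start. Among the 12419 genes with CpG-rich promoters the share with a promoter peak was 46.0%, and among the 7614 others it was 14.9%. SMC3 and ESCO2, which had no promoter peak, had CpG-rich promoters as well. A part of CpG content in the count of 8 was not tested.

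Of the 8 genes with a promoter peak, 3 reached a fold enrichment of at least 10 there (STAG1, PDS5A and PDS5B), against 12.7% of all genes with a promoter peak. The highest promoter peaks of the 8 genes had a median of 6.43, whereas those of all genes had a median of 3.72 and an upper quartile of 5.80. The order was STAG1, PDS5B, PDS5A, CTCF, ESCO1, NIPBL, WAPL and MAU2. Neighbours in this order did not overlap between STAG1 and PDS5B or between PDS5B and PDS5A, and each later neighbour overlapped the one before it. More than 1 promoter summit was found at 3 of the 8 genes (STAG1, WAPL and ESCO1), against 10.6%. In each of these 3 the summits lay on both sides of the start, and 9 of the 11 promoter summits lay within 500 bp of it, against 71.8% of the 7574 promoter summits of all genes. A divergent transcript started within 1 kb of 5 of the 10 starts, those of STAG1, NIPBL, MAU2, WAPL and CTCF, against 23.4% of all protein-coding genes and 32.0% of those with CpG-rich promoters.

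Pooled over the 10 genes, gene bodies were sparse in peaks, and SMC3 (2.61 per 100 kb) and MAU2 (2.64 per 100 kb) were the exceptions. Together the bodies span 1304 kb and held 8 intragenic peaks, or 0.613 per 100 kb with a 95% Poisson interval from 0.265 to 1.21. This interval covers counting error at 1 shared rate and leaves out the spread between genes. Over all protein-coding gene bodies the rate was 1.77 per 100 kb, and it was 1.79 over the 7794 genes whose length lies between those of MAU2 and STAG1. At that rate 23.3 intragenic peaks would fall in the 10 bodies. Without STAG1, the longest gene, the rate was 0.563. Taken gene by gene, the 95% Poisson interval included 1.79 at each of the 10 genes. It was narrowest at STAG1, from 0.149 to 2.11. An intragenic peak was found at 6 of the 10 genes, against 48.8% of all protein-coding genes and 73.2% of those in the same length range. WAPL, ESCO1, ESCO2 and CTCF had none.

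The long genes could be compared with others of their size. STAG1, NIPBL, PDS5A and PDS5B, all over 100 kb, held 6 intragenic peaks, or 0.630 per 100 kb, against 1.48 over the 3667 protein-coding genes of at least 100 kb. Each of the 4 was below the pooled rate, but none was at an extreme of the distribution. The share of these genes with a density at or below theirs was 25.3% for STAG1, 17.0% for NIPBL, 21.4% for PDS5A and 16.8% for PDS5B. STAG1 held 3 intragenic peaks, where the median gene of 300 to 600 kb held 5.00 and 32.5% of the 607 such genes held as few or fewer. In the 2 short genes with a peak, SMC3 and MAU2, a single summit sufficed for a density above the pooled rate.

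The intragenic peaks were mostly of moderate height. The highest intragenic peak of a gene had a median fold enrichment of 5.48 over the 6 genes that had one, and of 10.1 over the genes in the same length range that had one. A height of at least 10 was reached in 2 of the 10 bodies (MAU2 and PDS5A), against 36.8% of genes in the length range. Both of these summits lay within 1 kb of another annotated start of the same gene. The highest intragenic peaks of SMC3, STAG1, NIPBL and PDS5B lay in introns and had heights from 3.61 to 5.95, with overlapping intervals.

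Each body was largely covered by 1 interval between neighbouring summits. For WAPL, PDS5A, ESCO1, ESCO2 and CTCF more than 99% of the body lay in 1 such interval, against 24.5% of protein-coding genes in the same length range. For the other 5 genes the share ranged from 58.0% at MAU2 to 86.0% at SMC3. The interval exceeded 100 kb at 6 genes, against 14.0% of the 56373 intervals of the list, whose median was 24388 bp. It measured 355307 bp at STAG1, 271968 bp at PDS5B, 161747 bp at PDS5A, 130114 bp at NIPBL, 119903 bp at WAPL and 110995 bp at ESCO1. Intervals picked for covering a gene are not a sample of all intervals, since a long gene is more often crossed by a long one. An interval at least as long as that in STAG1 made up 1.32% of the list. Among genes of 300 to 600 kb, 7.58% had a summit-free stretch at least as long. The reference held no unknown bases in these intervals.

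Each summit and the 50 bp to either side were searched for the CTCF consensus, on either strand. It was exact under 3 of the 31 peaks, a share of 9.68% with a 95% exact binomial interval from 2.04% to 25.8%, against 11.5% of all peaks. With at most 1 mismatch it was found under 10 of 31 peaks, or 32.3% (16.7% to 51.4%), against 38.7%. In control windows 5 kb to either side of the summits, the shares were 0.0514% and 0.761%. The shares at the 10 genes thus lay near those of the list and above those of the control windows. Of the 10 matches with at most 1 mismatch, 5 lay on the strand of the gene and 5 on the other.

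In the whole list, matches were more frequent under the strong peaks than under the others. At the 10 genes the counts with at most 1 mismatch were too small to tell the 2 groups apart. Only the looser limit, set after values were seen, gave a clear contrast there. With at most 1 mismatch a match lay under 4 of the 10 peaks that reached a fold enrichment of 10, against 62.4%, and under 6 of the 21 others, against 29.7%. With at most 2 mismatches it lay under all 10 of the strong peaks, against 89.5%, and under 10 of the 21 others, against 55.8%. Control windows held such a looser match in 7.01% of cases, so that a single match of this kind carries less weight. The centres of the 10 matches under strong peaks, whose letters are given above, lay within 28.5 bp of the summit. Among them, 8 lay on the strand of the gene, and those in MAU2 intron 9 and downstream of CTCF lay on the other. The share over all strong peaks near genes was not computed, so no strand preference can be read from this count.

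Heights at the 10 genes did not follow the number of mismatches step by step. The 3 peaks with an exact match had fold enrichments from 24.5 to 34.5, above the upper quartile of 18.0 for exact matches in the list. The 11 peaks with 3 or more mismatches had a median of 2.87 and a highest value of 4.51, and the corresponding peaks of the list had a median of 3.36. This last class included all peaks of WAPL, the promoter peaks of NIPBL and MAU2 and the weak second promoter peak of STAG1. The class with 1 mismatch, by contrast, held 7 mainly moderate peaks, with a median of 4.96 against 8.25 in the list. In the class with 2 mismatches, of 10 peaks, the median was close to 12, against 6.16 in the list. This class held the highest of the 31 peaks. The classes are small and mix promoter, intragenic and flanking peaks.

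Strong promoter peaks differed from other strong peaks in the list. Among the 824 promoter peaks that reached a fold enrichment of 10, 43.0% held a match with at most 1 mismatch, and among the other strong peaks 63.5% did. Of the strong promoter peaks described here, only that of STAG1 held such a match, and those of PDS5A and PDS5B had 2 mismatches. The paralogs PDS5A and PDS5B both had strong peaks at their starts, over matches that differed in their letters.

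Other genes of the cohesin pathway were examined by their promoter peaks. Of 13 such genes, 2 had one, against 34.1% of all genes and 46.0% of those with CpG-rich promoters, which not all of the 13 had. These were ESPL1, which encodes the protease separase, with a fold enrichment of 4.97 (3.57 to 6.75) 194 bp before the start, and RAD21L1, which encodes a meiotic kleisin, with 3.52 (2.37 to 5.07) 871 bp into the gene. Among the 8 somatic genes, ESPL1 was the only one. SMC1A, RAD21, STAG2, HDAC8, CDCA5, SGO1 and PTTG1 had none, and their nearest summits lay from 1216 bp (STAG2) to 172893 bp (HDAC8) from the start. RAD21 itself had its nearest summit 12883 bp away. Among the 5 germline genes, RAD21L1 was the only one, and SMC1B, REC8, STAG3 and CTCFL had none. The count rested on the promoter limit, since 4 of the 13 genes had a promoter peak under a limit of 2 kb and 1 under a limit of 500 bp. With the start of any annotated transcript it was 3. The shares of all genes under these settings were not computed.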

How the data were processed

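RAD21 ChIP was described from 1 peak list, that of untreated wild-type HCT116 cells, on which the authors called peaks without pooling. On the Galaxy portal the authors trimmed paired reads (Trimmomatic 0.39), aligned them to GRCh38 (Bowtie2 2.5.3), removed duplicates (Picard) and ran MACS2 2.2.9.1 against Input at a q-value threshold of 0.05. Which Input served the wild-type library is not given in the sources used here. The deposited list gives positions, a score, the fold enrichment as a ratio over local background, and the −log10 of the p-value and of the q-value. The deposited score was not used.

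ChIP fragment numbers and backgrounds were recovered from the fold enrichment and p-value (MACS2 adds 1 to both counts, and p is a Poisson tail), with a tolerance of 0.05 for whole numbers. This gave whole numbers for all but 14 of 56853 peaks. The recovery, the placement of summits and the search for the consensus were tested on simulated data. Summits were placed on GENCODE version 44 genes, with the start of the representative transcript as the promoter. Sequence came from the GRCh38 reference, and peak positions were checked against its chromosome lengths. A promoter was called CpG-rich at a GC content of at least 55% and an observed to expected CpG ratio of at least 0.6, in the 300 bases that begin 250 before the start. Background counts were taken over the 56397 peaks and the protein-coding genes on chromosomes 1 to 22, X and Y.

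The members, the pathway list and the settings were chosen with earlier results of these data known. Named peaks were each member's promoter peaks, its highest intragenic peak, its nearest flanking peaks and any peak with a fold enrichment of at least 10 or an exact consensus. Other pathway genes were named by promoter peaks, and neighbouring genes where they start within 1 kb of a named summit. A few weaker peaks of the windows, the CpG content, summit-free intervals, counts over flanks, divergent starts and the consensus with 2 mismatches were added after values were seen, the last as an alternative. Alternatives covered stricter q-values, low background, a minimum fold enrichment, promoter limits, placement by overlap, flank sizes, consensus settings and ranking by q-value. No test was made with 1 library, whose depth is not in the list. Computations ran in Python 3.11.15 with scipy 1.17.1, pandas 2.3.3, matplotlib 3.10.9 and numpy 2.4.6.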

Additional observations from a re-analysis of the deposited data

How the results depend on the processing

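Of 55 alternative values for the counts, rates and medians over the 10 genes, 50 moved by less than the limits set for them. A q-value of at most 0.01 and a fold enrichment of at least 2 removed none of the 31 peaks. Values over these peaks could not change there, so the count of 50 is no measure of robustness. The limits also let sizeable changes pass. At a q-value of at most 1e-05, genes with a promoter peak fell from 8 to 6. The intragenic rate fell from 0.613 to 0.460 per 100 kb. The number of other pathway genes with a promoter peak was 1 with a promoter limit of 500 bp and 4 with 2 kb. A flank of 50 kb gave 47 peaks in the windows. The share of peaks with a CTCF consensus was 32.3% with 1 mismatch and 64.5% with 2 mismatches allowed, the latter chosen after seeing the data. Of 284 alternative values for single genes, 259 moved by less than their limits and 25 by more. The settings that removed none of the 31 peaks entered this count too. A further 11 values could not be given because the peak was lost or changed class. The promoter peaks of MAU2 and WAPL were lost at a q-value of at most 1e-05. With peaks of high local background left out, the promoter peaks of NIPBL and PDS5B and the highest intragenic peaks of SMC3 and PDS5A were lost. The strong intragenic peaks of MAU2 and PDS5A became promoter peaks when every annotated start was used. Ranked by q-value instead of fold enrichment, the median peak of the 31 moved from the 39.1 to the 44.3 percentile of the list. Fold enrichment near 2 to 3 rests on some 20 fragments, so weak peaks could not be ordered at this depth. No paired analysis was possible because the results come from no test and rest on 1 library.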
